A study of Mus musculus with 4 samples.

Results

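The genes described here encode subunits of cohesin, the chromosome-holding ring, in its meiotic and its general form, and were chosen by name: the meiotic subunits Stag3, Rec8, Smc1b and Rad21l (4 genes) and the general subunits Stag1, Stag2, Smc1a, Smc3 and Rad21 (5 genes). All 9 had a row among the 14984 genes of the deposited table, and all 9 passed the filter on low read counts that left 12095 genes.

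Cohesin is the ring-shaped protein complex that holds sister chromatids together. Its core has a pair of SMC proteins (SMC1 and SMC3), a kleisin that closes the ring and a STAG protein bound to the kleisin. Dividing cells use SMC1A, SMC3, RAD21 and STAG1 or STAG2, whereas germ cells in meiosis also make their own versions: SMC1B in place of SMC1A, REC8 or RAD21L in place of RAD21, and STAG3 in place of STAG1 and STAG2. SMC3 has no meiotic counterpart and serves both forms. The meiotic rings load onto chromosomes around the last replication before meiosis and carry the axial elements on which homologous chromosomes pair.

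Ribosome footprints, the mRNA fragments that ribosomes shield from nuclease, had been sequenced from whole mouse testes at day 10. The libraries were 2 labelled control and 2 labelled cKO, the latter from mice in which loxP-flanked Eif5 alleles (Eif5fl/fl) were combined with Stra8-Cre. Eif5 encodes a translation initiation factor, and the Stra8 promoter drives Cre in premeiotic male germ cells, so the somatic cells of the testis keep Eif5. The labels do not give the genotype of the controls, and they do not say whether a library came from 1 animal or from pooled animals. The spread behind each p-value is therefore that between the libraries as sequenced, and part or all of it may be technical.

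Depth was 2225964 to 2934609 recovered reads per library. Eif5 itself had 365 and 304 in the controls and 173 and 266 in the Eif5 cKO libraries (deposited values, which are reads divided by a size factor for each library). Both cKO libraries lay below both controls, with a log2 fold change of -0.63 (SE 0.25) and an adjusted p of 0.319 by limma, which misses the threshold of 0.05. The Eif5 cKO libraries did not form a tight pair: across 12193 genes, cKO replicate 2 correlated at r = 0.931 with control replicate 1 and at 0.919 with cKO replicate 1, so the calls of the subunits and of the partner genes named below were also checked with each library left out. Defining markers of germ cells (Ddx4), Sertoli cells (Sox9) and Leydig cells (Cyp11a1) were detected, as the labelled tissue would hold.

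Footprints on 2 of the 4 meiotic subunits fell in the Eif5 cKO testes, and 0 of the 5 general subunits passed the test. Stag3 was 3.0-fold lower and Smc1b 3.43-fold lower. By comparison, limma called 0.604% of the 12095 tested genes lower and 0.0744% higher. The meiotic subunits had a median log2 fold change of -1.39 and the general subunits one of -0.16, against 0.003 over all genes tested. In whole testis, fewer cells of a type and fewer footprints per cell cannot be told apart. Both calls ended when the libraries were scaled on markers of differentiating spermatogonia (values below). That scaling was added after the values were seen. The 8 markers of that list, of which 7 were used, were themselves lower, with a median log2 fold change of -1.65. The scaling could therefore hardly have kept calls of this size.

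**Figure D1:**
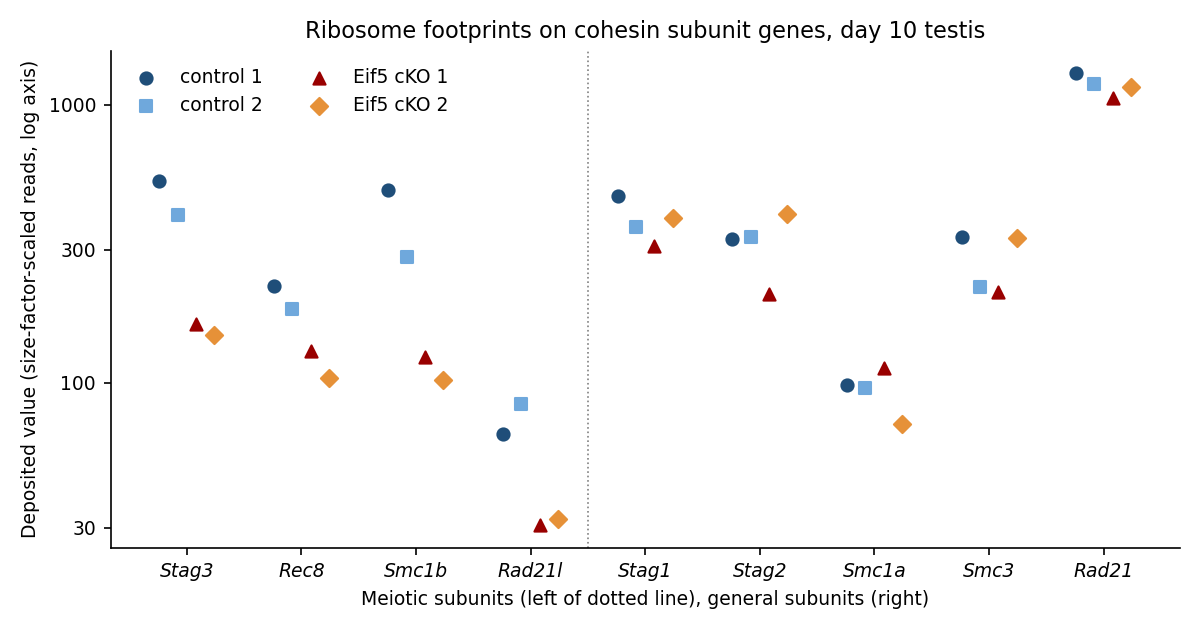
Deposited value of each subunit gene in each of the 4 libraries, on a log axis; each point is 1 library, and the dotted line separates meiotic from general subunits. The 2 Eif5 cKO points (triangles and diamonds) lie below both control points for all 4 meiotic subunits, whereas the groups overlap for 4 of the 5 general ones.

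Among the meiotic subunits, the 2 genes that passed the test were the STAG protein and the SMC1 form. Stag3 (chromosome 5, 138272514 to 138312397, GRCm38.p6) encodes the STAG protein shared by the meiotic rings. It had deposited values of 530 and 402 in control replicates 1 and 2, and of 162 and 148 in Eif5 cKO replicates 1 and 2. The highest cKO library was far below the lowest control. Group means were 466 ± 90.4 and 155 ± 10.2 (SD, n = 2 each), with a log2 fold change of -1.57 (SE 0.24, 95% interval from -2.06 to -1.07; limma adjusted p = 1.20e-04). Smc1b (chromosome 15, 85064689 to 85131957) encodes the meiotic SMC1. Its values were 491 and 284 in the controls and 124 and 102 in the cKO pair. The groups were again well apart, although the controls differed 1.73-fold from each other, the widest control gap of the 9 genes. The means were 387 ± 147 and 113 ± 15.2 (SD, n = 2 each), with a log2 fold change of -1.72 (SE 0.27, 95% interval -2.26 to -1.18; limma adjusted p = 1.20e-04).

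The calls depended on control replicate 1. Without control replicate 1, the log2 fold changes were -1.37 for Stag3 and -1.33 for Smc1b, and neither passed (limma adjusted p = 0.0990 and 0.217), so that 0 of the 9 subunits was called. These fits kept the 12095 genes tested with all libraries. With the filter on low reads run again on the 3 libraries left, an alternative added after its values were seen, Stag3 passed without control replicate 1 (limma adjusted p = 0.0249) and Smc1b again did not (adjusted p = 0.0804). Under either filter, both passed when any of the other 3 libraries was the one left out. The edgeR quasi-likelihood test on recovered reads called the same 2 members lower (adjusted p = 1.03e-04 for Stag3 and 7.16e-05 for Smc1b), where it called 0.661% of all genes lower. DESeq2 also called these 2 (adjusted p = 8.95e-06 and 4.22e-05), against 0.610% of the genes for which it gave an adjusted p.

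The start regions of Smc1b, which fell, and of its general paralog Smc1a, which did not pass the test, are shown so that the pair can be compared by sequence. Each sequence is the 250 bases before the transcript start, from RefSeq (GRCm38.p6), written 5′ to 3′ on the strand of the gene, with capitals marking matches to the motifs searched. The Smc1b stretch lies on the minus strand at chr15:85131958-85132207, and the Smc1a stretch on the plus strand at chrX:152016178-152016427.
Smc1b: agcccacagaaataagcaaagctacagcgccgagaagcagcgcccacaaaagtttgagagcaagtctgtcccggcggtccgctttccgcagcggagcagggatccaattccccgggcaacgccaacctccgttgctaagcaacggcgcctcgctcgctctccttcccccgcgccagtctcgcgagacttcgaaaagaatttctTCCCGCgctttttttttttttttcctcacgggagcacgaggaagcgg
Smc1a: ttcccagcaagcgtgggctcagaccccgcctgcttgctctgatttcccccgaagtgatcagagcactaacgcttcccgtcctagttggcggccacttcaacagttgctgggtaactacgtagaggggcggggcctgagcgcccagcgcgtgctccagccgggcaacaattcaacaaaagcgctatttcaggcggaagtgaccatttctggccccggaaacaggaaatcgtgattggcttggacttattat

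A RefSeq start region was found for 7 of the 9 members, not including Stag2 and Rad21. The motifs, searched on both strands, were TCCCGC, the letters given for the repressor E2F6, CACGTG, an E-box, and CNCCTCAG, the letters given for the meiotic initiators STRA8 and MEIOSIN. TCCCGC was found in Smc1b (its first base 47 bases before the start), Rec8 (38 bases), Stag1 (15 bases) and, on the opposite strand, Smc3 (116 bases). Both meiotic and general subunits therefore carried it, against 16.9% of all 32851 start regions. CACGTG was found in Stag3 alone of the 7, 170 bases before the start (6.02% of all), and CNCCTCAG in none of them (6.42% of all). These matches describe letters in a window and show no binding.

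The Smc1b region held 25 CpG dinucleotides and 58.0% G and C, and the Smc1a region 16 and 56.8%, against medians of 6 and 52.4% over all start regions. The others ranged from 10 CpG in Rec8 to 31 in Stag1, except Rad21l, with 1 CpG and 25.6% G and C. The start used by the RefSeq table lay inside the span of the gene for Rad21l (2089 bases), Stag3 (7995 bases), Stag1 (45739 bases) and Rec8 (164 bases), so other starts of these genes were not examined. Of the 9 members, Stag2 and Smc1a are on the X chromosome, and the meiotic subunits are each on a different autosome.

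The kleisins of the meiotic rings were lower in both Eif5 cKO libraries but did not pass the test. Rec8 (chromosome 14, 55618002 to 55625395) encodes the kleisin kept at centromeres until the second meiotic division. Its deposited values were 223 and 184 in the controls and 130 and 104 in the cKO pair. Its groups did not overlap. The means were 203 ± 27.7 and 117 ± 18.0 (SD, n = 2 each). This gave a log2 fold change of -0.80 (SE 0.27, 95% interval from -1.35 to -0.24), with a limma adjusted p of 0.211. Rad21l (chromosome 2, 151644366 to 151670622) encodes the kleisin of early meiotic prophase. It was the least covered of the 9 genes, with 27 to 80 reads per library. Its values were 65.3 and 83.8 in the controls and 30.7 and 32.3 in the cKO pair. The cKO libraries lay close together and below both controls, with a log2 fold change of -1.21 (SE 0.40, 95% interval -2.02 to -0.39; limma adjusted p = 0.193). Counting error alone gave a 95% Poisson interval of 20.2 to 44.6 for the value in cKO replicate 1 and of 51.8 to 81.3 in control replicate 1. PCR copies are not independent molecules, so such intervals cover counting error only.

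All 4 meiotic subunits thus had groups that did not overlap, in the lower direction. Over all tested genes, 20.9% had non-overlapping groups with Eif5 cKO lower and 20.0% with Eif5 cKO higher, so non-overlap alone is common with 2 libraries a group.

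The general subunits showed no called change, and their 95% intervals spanned 0 in every case. Stag1 (chromosome 9, 100597709 to 100958544), which encodes the STAG protein linked to telomere cohesion, had values of 470 and 363 in the controls and 310 and 392 in the cKO pair. The groups overlapped (log2 fold change -0.24, SE 0.24, 95% interval -0.72 to 0.23). Stag2 (chromosome X, 42149297 to 42277186), the other mitotic STAG gene, had 330 and 333 in the controls and 208 and 404 in the cKO pair. Here the controls were nearly equal and the cKO libraries lay on either side of them, 1.94-fold apart. Its log2 fold change was -0.19 (SE 0.26, 95% interval -0.71 to 0.33).

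Smc1a (chromosome X, 152016428 to 152061973), the SMC1 of dividing cells, had 97.9 and 95.3 in the controls and 112 and 70.9 in the cKO pair. The cKO values again fell on either side of the controls (log2 fold change -0.11, SE 0.32, 95% interval -0.76 to 0.54). Smc3 (chromosome 19, 53600396 to 53645831), the partner of both SMC1 forms, had 335 and 222 in the controls and 212 and 330 in the cKO pair. Its log2 fold change was -0.04 (SE 0.26, 95% interval -0.56 to 0.48), the smallest of the 9. Rad21 (chromosome 15, 51962604 to 51993538), the kleisin of mitotic cohesin, had the most reads, 932 to 1587 per library. Its values were 1295 and 1186 in the controls and 1059 and 1155 in the cKO pair. This was the single general subunit whose groups did not overlap, by a narrow margin (log2 fold change -0.16, SE 0.23, 95% interval -0.62 to 0.29). The limma adjusted p of these 5 genes ran from 0.767 for Stag1 to 0.975 for Smc3. The intervals leave room for a decrease of Smc1a by 0.76 on the log2 scale, so a moderate change was not detectable with these libraries.

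The replicates of a group did not move the same way for all subunits. In the Eif5 cKO group, Stag1, Stag2, Smc3, Rad21 and Rad21l were 1.05-fold to 1.94-fold higher in replicate 2 than in replicate 1. For Stag2 the counting intervals of the cKO libraries did not meet (179 to 240 in replicate 1 and 367 to 443 in replicate 2). Stag3, Rec8, Smc1b and Smc1a were 1.10-fold to 1.59-fold higher in replicate 1 instead. In the control group, Rad21l and Stag2 were higher in replicate 2 (1.28-fold and 1.01-fold), and the other 7 genes were higher in replicate 1.

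The meiotic and general paralogs were next set against each other within each library, where the scaling between libraries cancels. In whole testis such a ratio still depends on the mix of cell types, and that part was not tested. The ratio is not corrected for gene length, so only its change between groups is read, not its level. For the STAG proteins, the log2 ratio of Stag3 to Stag1 plus Stag2 was -0.59 and -0.79 in the controls and -1.67 and -2.42 in the cKO pair. The ratio was lower in both cKO libraries, by a mean of 1.35 on the log2 scale, or 2.55-fold. For the SMC1 forms, whose start regions are printed above, the log2 ratio of Smc1b to Smc1a was 2.32 and 1.56 in the controls and 0.14 and 0.52 in the cKO pair. The groups lay apart, and the difference of the means (-1.61, or 3.05-fold lower) was the largest of the 4 pairs.

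For the kleisins, the log2 ratio of Rec8 to Rad21 was -2.53 and -2.68 in the controls and -3.02 and -3.46 in the cKO pair. The cKO libraries were lower by a smaller margin, with a difference of -0.63. The log2 ratio of Rad21l to Rad21 was -4.29 and -3.81 in the controls and -5.06 and -5.12 in the cKO pair, a difference of -1.04. No pair had overlapping groups, and an exact two-sided permutation test over the 4 libraries gave p = 0.333 for each of the 4 pairs (0.333 after Benjamini-Hochberg adjustment). That is the smallest p that 2 against 2 libraries allow, so this design could not have reached 0.05. The 4 pairs are not independent, since both kleisin pairs share Rad21 as denominator. As a reference, the log2 ratio of Stag1 to Stag2 differed by -0.05 between groups, with overlapping libraries (0.51 and 0.12 in control, 0.57 and -0.04 in the cKO pair).

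**Figure D2:**
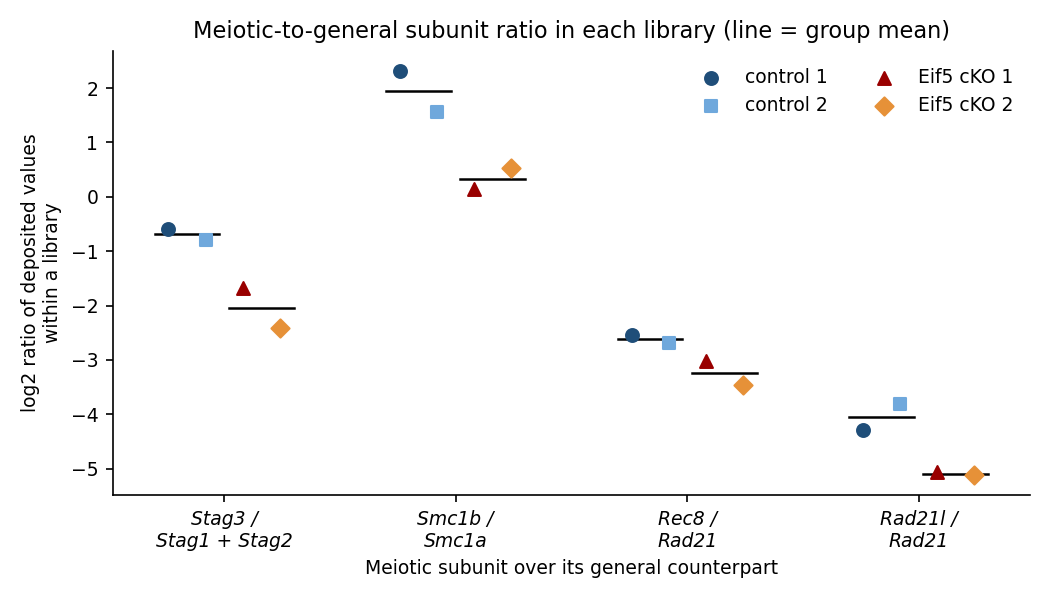
Log2 ratio of the deposited value of each meiotic subunit to its general counterpart, computed within each library; points are single libraries and the short lines are group means (n = 2 each). In all 4 pairs both Eif5 cKO libraries lie below both controls, and the gap between the means runs from -0.63 for Rec8 over Rad21 to -1.61 for Smc1b over Smc1a. The ratios are not corrected for the mix of cell types.

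The meiotic subunits were lower by differing amounts in these libraries, but no difference among them passed a test. The log2 ratio of Stag3 to Rec8 was 1.25 and 1.13 in the controls and 0.32 and 0.50 in the cKO pair, a difference of -0.77 with groups apart. The log2 ratio of Rec8 to Smc1b was -1.14 and -0.62 in the controls and 0.06 and 0.02 in the cKO pair, a difference of 0.93 with groups apart. Rec8 thus had the smaller difference in these libraries. Of the 6 pairs of meiotic subunits these were the 2 whose groups did not overlap, and both include Rec8. With 2 libraries a group, a share of 0.333 of the possible arrangements puts the groups apart. The exact two-sided permutation test gave p = 0.333 for both, the smallest possible, and 0.667 after Benjamini-Hochberg adjustment over the 6 pairs. The other 4 pairs overlapped, among them Stag3 to Smc1b, whose log2 ratio differed by 0.15.

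Cohesin depends on other proteins to load, lock, release and cut it, and in meiosis it is bound by the proteins of the chromosome axis and synaptonemal complex. Of 9 genes of that axis and complex, 7 fell and 0 rose, and the sign was negative for all 9, the median being -1.62. For this list and those that follow, the background is all 12095 tested genes. Of these, limma called 0.604% lower and 0.0744% higher, and 6014 had a negative sign. Sycp1, the transverse filament protein, was 3.36-fold lower, with means of 422 ± 59.7 and 126 ± 39.4 (n = 2 each, SD; log2 fold change -1.77, SE 0.26). Tex12, a component of the central element, had means of 200 ± 32.2 and 63.9 ± 2.82 (n = 2 each, SD; -1.62, SE 0.29). Sycp2 (-2.66, SE 0.51) and Sycp3 (-1.26, SE 0.24), which build the axial element on meiotic cohesin, also fell. Hormad1, an axis protein that monitors synapsis (-1.89, SE 0.46), and the central element genes Syce1 (-1.49, SE 0.30) and Syce2 (-1.19, SE 0.26) were the remaining 3. The values for the meiotic subunits (-0.80 to -1.72) lay within the range of this list (-1.03 to -2.66) except for Rec8. Without control replicate 1, 0 of the 9 axis genes passed in limma, and without control replicate 2, 1 did (3 in each case with the filter run again). Without Eif5 cKO replicate 1, the calls of Sycp3, Syce1 and Hormad1 were lost. The log2 fold change then moved to -0.96 for Sycp3 and to -0.77 for Hormad1. Scaled on the pan germ cell markers described below, 3 axis genes passed in limma, and Sycp3, Syce1, Syce2 and Hormad1 were lost (adjusted p = 0.140, 0.0690, 0.218 and 0.0767). edgeR and DESeq2 did not call Hormad1 (adjusted p = 0.0884 and 0.341) but called the other 6.

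Genes that load, acetylate, anchor or release cohesin mostly did not pass the test. Of 10 such genes, 1 fell and 0 rose, with a median log2 fold change of -0.05. The gene that fell was Esco2, an acetyltransferase that locks cohesin onto chromatin during DNA replication. It had values of 264 and 202 in the controls and 80.7 and 109 in the cKO pair, a 2.46-fold difference of means (log2 fold change -1.30, SE 0.28; limma adjusted p = 0.0117). The cKO libraries were well below the controls, whereas its relative Esco1 overlapped between groups (log2 fold change -0.05, SE 0.35), as did the loader gene Nipbl (0.05, SE 0.27) and the release factor gene Wapl (listed as Wapal; -0.20, SE 0.24). Mau2, the partner of Nipbl, was the member with the next smallest p and did not pass (0.39, SE 0.27; limma adjusted p = 0.655). The call for Esco2 was lost without control replicate 1 or control replicate 2 (adjusted p = 0.565 and 0.0856), and with the filter run again it was lost without the first of these (0.392) and kept without the second (0.0212). It was also lost with scaling on pan germ cell markers (-0.51; limma adjusted p = 0.141) and on summed Sertoli cell markers (0.0544).

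Among genes that cut or protect cohesin, 9 of the 10 named were measured, 1 fell and 0 rose, with a median of -0.42. Bub1, a kinase that marks centromeres for the cohesin protector shugoshin, had 339 and 261 in the controls and 106 and 180 in the cKO pair (log2 fold change -1.10, SE 0.27; limma adjusted p = 0.0338). DESeq2 did not call it (adjusted p = 0.131), and in limma it was lost when either control (adjusted p = 0.675 without replicate 1, 0.152 without replicate 2) or cKO replicate 1 (0.307) was left out. With the filter run again, it passed without control replicate 2 (limma adjusted p = 0.0424) and not without the other 2. It was lost with scaling on pan germ cell markers (-0.31; limma adjusted p = 0.360) and on summed Sertoli cell markers (0.114). Espl1, which encodes separase, the protease that opens the kleisin, had 258 and 239 in the controls and 151 and 112 in the cKO pair. The groups lay apart, but the gene did not pass (-0.93, SE 0.26; limma adjusted p = 0.0964). It passed without Eif5 cKO replicate 1 (-1.14; adjusted p = 0.0248) and with scaling on the median ratio of Sertoli cell markers (0.0383). The shugoshin gene listed as Sgol2a, which guards REC8 at centromeres, had 7 to 36 reads per library and a log2 fold change of -1.36 (SE 0.68), and did not pass either.

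Of the 4 other SMC genes, which serve condensin and the SMC5/6 complex, 0 passed, with a median of -0.11. Smc4, a condensin subunit, had a log2 fold change of -0.79 (SE 0.28; limma adjusted p = 0.244), and passed without Eif5 cKO replicate 2 (-1.16; adjusted p = 0.0182). Smc6 had one of -0.38 (SE 0.24). The remaining genes of the family, Smc2 (0.17, SE 0.30) and Smc5 (0.17, SE 0.30), had a positive sign.

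**Figure D3:**
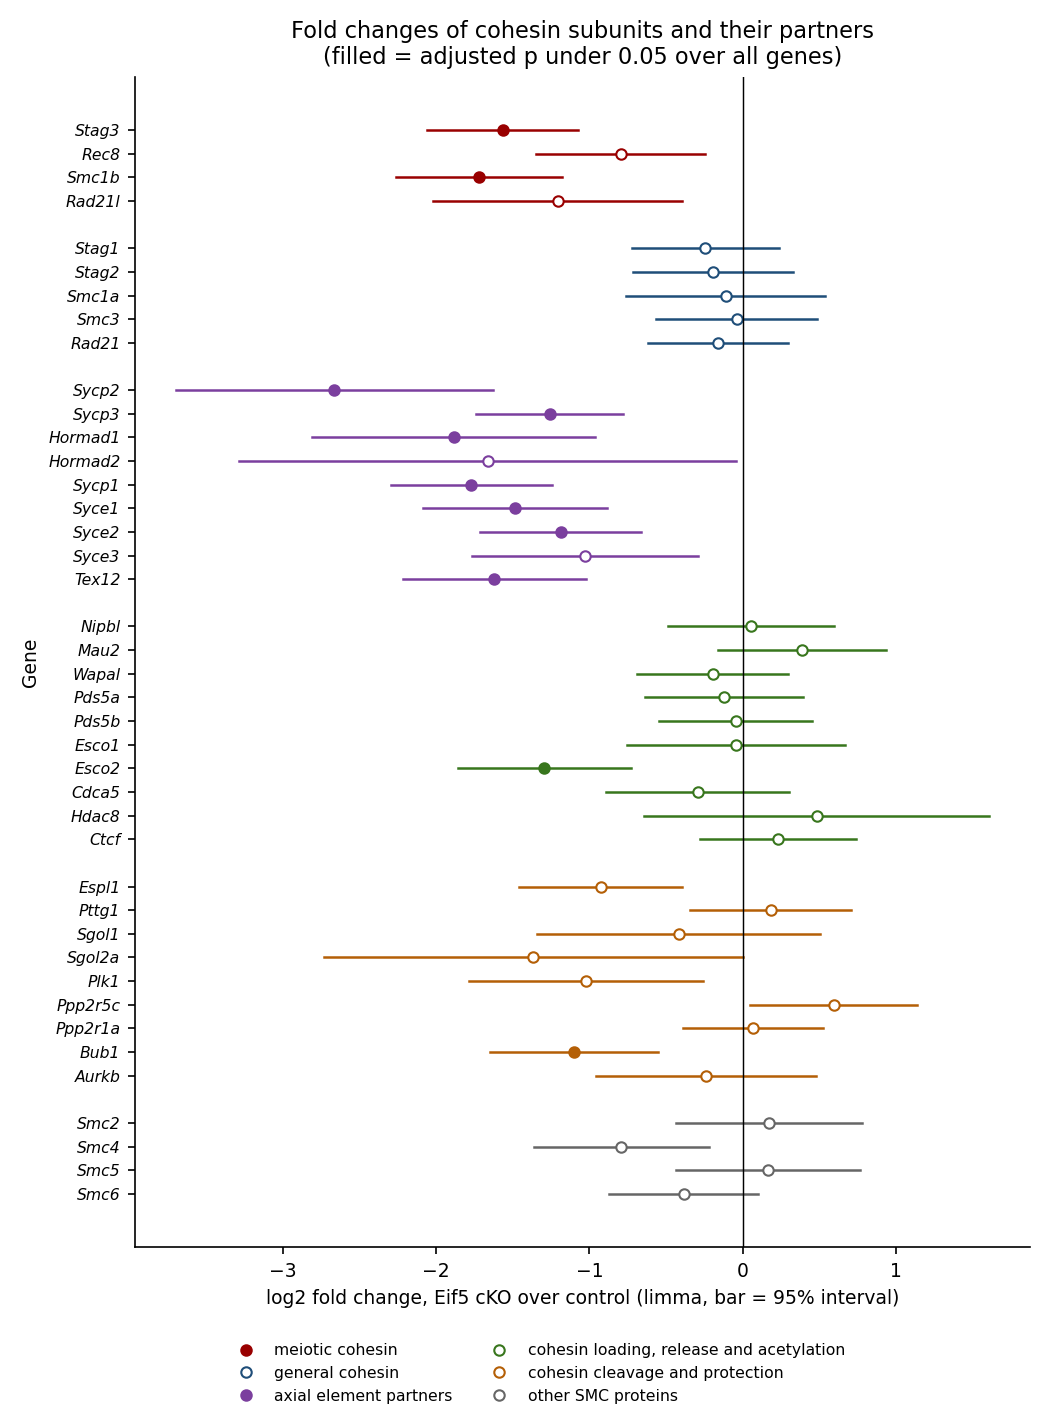
Log2 fold change of Eif5 cKO over control for the 9 cohesin subunits and the 32 genes of the 4 partner lists; points are limma estimates, bars are 95% intervals, and filled points passed an adjusted p of 0.05 over all genes. Filled points are seen in the meiotic cohesin and axis lists, plus Esco2 and Bub1, and all of them lie left of 0.

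The genes with the most similar pattern over the 4 libraries were found by Euclidean distance between centred log2(value + 1) profiles, over 11139 candidates. The mean profile of the meiotic subunits was nearest to Ecsit (distance 0.0880), Gnpda1 (0.0978), Setdb2 (0.0991), Rrm2 (0.127) and H1fx (0.138). Their log2 fold changes were -1.21 to -1.34, and of the 5 only Rrm2, which encodes a ribonucleotide reductase subunit, passed in limma (adjusted p = 0.0221). That call was lost without control replicate 1 or 2 (0.638 and 0.170) and with scaling on summed Sertoli or pan germ cell markers (0.0552 and 0.138). Ecsit just missed (limma adjusted p = 0.0516). In limma it passed with TMM factors (adjusted p = 0.0469), a replicate block (0.0458), pseudocount 4 (0.0476) and the median ratio of Sertoli cell markers (0.0214). The edgeR test also called it (adjusted p = 0.0391). In limma it did not pass with scaling on pan germ cell (adjusted p = 0.182), differentiating spermatogonia (0.809) or summed Sertoli cell markers (0.0736). Nor did it with pseudocount 0.5 (limma adjusted p = 0.0525), no filter (0.0505) or at least 50 reads in 2 libraries (0.0546). DESeq2 did not call it (adjusted p = 0.105). With 1 library left out, the log2 fold change of Ecsit ran from -1.22 to -1.44. The mean profile of the general subunits was nearest to Wdr43 (distance 0.0225), Rnf20 (0.0247), Eepd1 (0.0307), Itsn1 (0.0353) and Snapc1 (0.0406), with log2 fold changes of -0.12 to -0.16 and 0 calls. With 4 libraries, such a match describes these libraries and nothing more.

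Some markers of germ cells also fell in the Eif5 cKO libraries. Over all 12095 tested genes, limma called 0.604% lower, and 6014 had a negative sign. The summed value of 12 pan germ cell markers was 5084 and 4482 in the controls and 2362 and 2711 in the cKO pair; 5 of the 12 fell in limma, and 11 had a negative sign with a median log2 fold change of -0.70. For 8 markers of differentiating spermatogonia the sums were 2338 and 2133 in the controls and 1200 and 1105 in the cKO pair, and 3 fell. All 8 had a negative sign, and their median log2 fold change of -1.65 lay below that of the meiotic subunits (-1.39). Kit (-0.48) and Stra8 (-1.53), the latter a called gene, held most of that sum in the controls. The list includes Stra8 and Meiosin, the meiotic initiators named above, and ran from -0.48 for Sohlh1 to -3.57 for Prdm9. Besides Stra8, the called genes were Meiosin, listed as Gm4969 (-3.54), and Rhox13 (-1.78). Kit, Sohlh1 and Prdm9 did not pass (limma adjusted p = 0.431, 0.630 and 0.184). For undifferentiated spermatogonia, 0 of 6 tested markers passed, with sums over 8 genes of 631 and 573 in the controls and 549 and 568 in the cKO pair. Sertoli cell markers summed to 59150 and 82007 in the controls and 112998 and 80831 in the cKO pair. Clu held most of that sum in the controls (35568 and 52646). Of the 13 tested Sertoli markers, 11 had a positive sign and 2 a negative one, Wt1 (-0.19) and Gata1 (-0.75). Leydig cell markers summed to 1582 and 2025 in the controls and 2965 and 2588 in the cKO pair. Macrophage markers summed to 756 and 956 in the controls and 1127 and 1231 in the cKO pair, and peritubular myoid markers to 5839 and 6080 and then 5795 and 4634. None of the 13 tested Sertoli, 7 Leydig, 5 macrophage or 5 myoid markers passed singly. All 14984 genes held at least 10 reads in total, and Eomes and Utf1 of the undifferentiated spermatogonia list were not among them. The summed value of the 4 meiotic subunits in Eif5 cKO replicates 1 and 2 was 0.395 and 0.342 of the control mean, beside 0.494 and 0.567 for the pan germ cell markers and 0.537 and 0.494 for those of differentiating spermatogonia. The part of these shifts in the cohesin result was not tested beyond the scaling that follows.

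**Figure D4:**
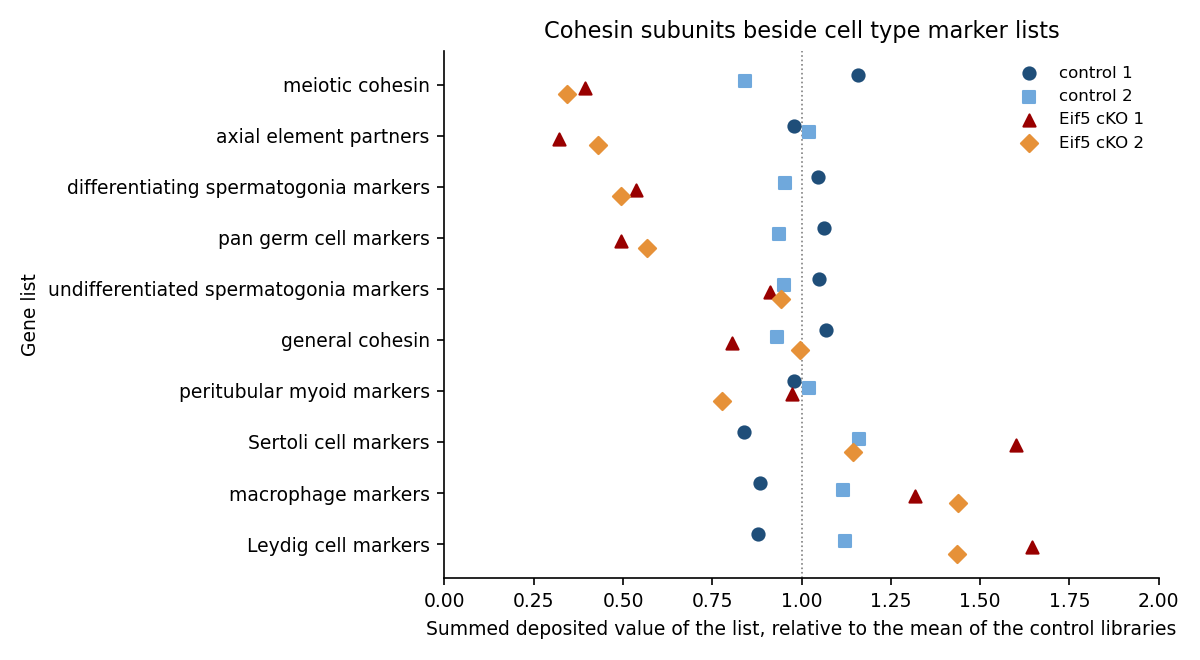
Summed deposited value of each gene list in each library, divided by the mean of the 2 control libraries, so that 1 (dotted line) is the control mean; points are single libraries. The meiotic cohesin and axis genes sit lowest in the Eif5 cKO libraries, the pan germ cell markers at 0.494 and 0.567, and the general cohesin genes at 0.805 and 0.995.

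Scaling the libraries on the median ratio of the pan germ cell markers set each subunit against those 12 genes. This moved the median of all genes to 0.78. Stag3 was then lower by a log2 fold change of -0.77 (limma adjusted p = 0.0176) and Smc1b by -0.93 (adjusted p = 0.0114), so both remained called lower. Rec8 was at -0.01 and Rad21l at -0.43, and neither passed (adjusted p = 0.988 and 0.383). The general subunits turned positive under this scaling, with a median of 0.63 and calls for Smc3 and Rad21 (limma adjusted p = 0.0295 and 0.0474). Of all 12095 tested genes, 5011 were likewise called higher and 40 lower. Relative to the shifted median of all genes, the median of the general subunits was -0.15.

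Scaling on the median ratio of the differentiating spermatogonia markers, an alternative added after the values were seen, gave another picture. It used the 7 of the 8 genes with reads in every library and moved the median of all genes to 1.44. Stag3 was then at -0.10 and Smc1b at -0.26, and neither passed (limma adjusted p = 0.811 and 0.547). Rec8 and Rad21l turned positive (0.66 and 0.23) and did not pass (adjusted p = 0.130 and 0.663). Relative to these markers, then, no decrease of a meiotic subunit was called. The 8 markers of the list had a median log2 fold change of -1.65 before this scaling, with Prdm9, the gene not used, at -3.57. The genes used include Stra8 and Meiosin, the meiotic initiators named above. Genes with a decrease near that of the markers used were therefore bound to come near 0. The 5 general subunits were called higher, but so were 9208 of the 12095 tested genes, and 14 genes were called lower. The median of the general subunits was 1.30, which is -0.14 relative to the shifted median of all genes. Of the partner genes, Sycp2 alone was still called lower (-1.26; adjusted p = 0.0461).

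With the libraries scaled on Sertoli cell markers, by their summed reads or by their median ratio, the median of all genes was -0.45 or -0.34. All 9 subunits then had a negative sign, and Stag3 and Smc1b were again the members called.

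**Figure D5:**
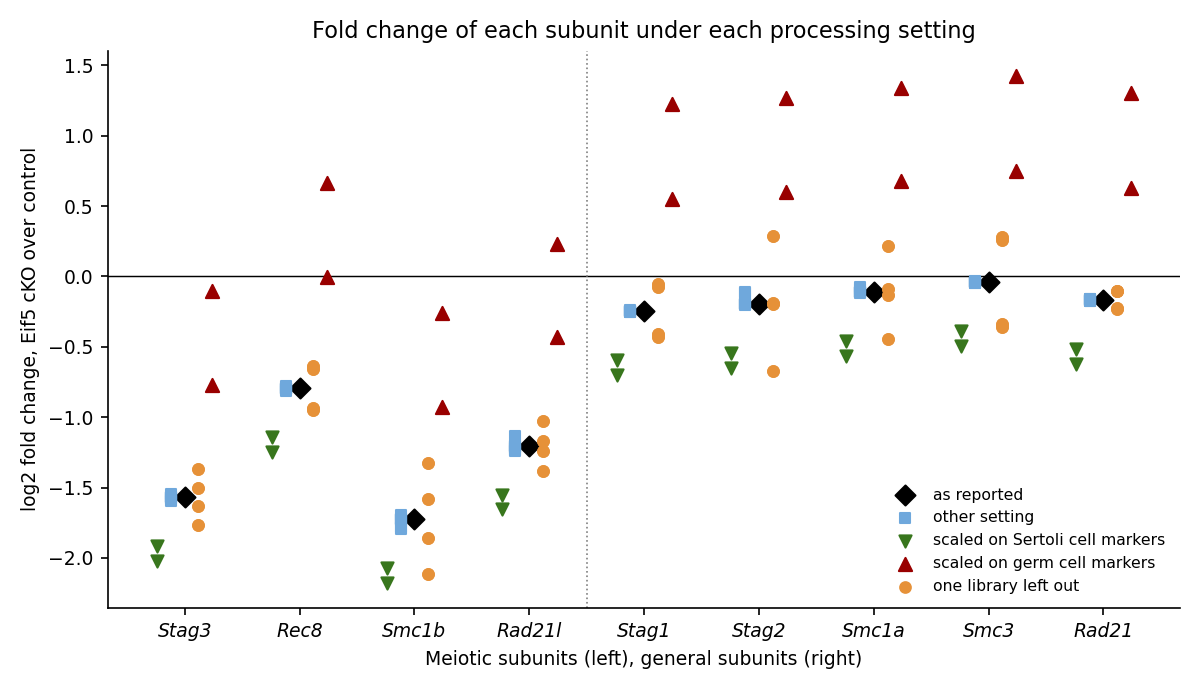
Log2 fold change of each subunit under each processing setting; the black diamond is the value reported above, circles leave out 1 library, and triangles scale the libraries on germ cell (up; the pan germ cell list or, higher, that of differentiating spermatogonia) or Sertoli cell (down) markers. Stag3 and Smc1b stay below 0 in all 21 settings (highest -0.10 and -0.26), while each general subunit has values on both sides of 0.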

How the data were processed

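Ribosome footprints of 4 whole-testis libraries were analysed. Bowtie2, STAR and featureCounts and the build GRCm38 appear, with no version, in the submitters' processing notes, and how strand and multi-mapping reads were treated is not given in the sources used here. The deposited columns are called raw counts, but their values are a normalized signal, since in each column 100% of values were whole multiples of the value of 1 read (relative tolerance 1e-06). The value of 1 read was 1 divided by the median-of-ratios size factor of the library (0.871 to 1.23). Because the values were not whole, limma 3.58.1 (R 4.3.3) was fitted to log2(value + 1) with an intensity trend and group as the only term. Fold changes on this scale understate those of low genes. Genes passed filterByExpr of edgeR 4.0.16 (minimum count 10) on recovered reads. Tests were two-sided, adjusted by Benjamini-Hochberg over 12095 genes and called under 0.05. With 2 residual degrees of freedom the calls lean on variance pooled over genes (37 prior degrees of freedom).

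The members and lists were chosen with earlier results of these data known. Of the list genes, 4 were matched by a RefSeq synonym. Named genes were the members, Eif5, the 2 smallest p-values and every called gene of each partner list, and the 5 nearest profiles; other genes named were chosen after their values were seen. No coding lengths were used here, so levels were not compared between genes. Alternatives were TMM factors, edgeR, DESeq2 1.42.0, scaling on cell type markers, pseudocounts of 0.5 and 4, no filter, at least 50 reads in 2 libraries, a replicate block and leaving out each library, with the tested genes kept; running the filter again on the libraries left, and scaling on differentiating spermatogonia markers, were added after the values were seen.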

Additional observations from a re-analysis of the deposited data

How the results depend on the processing

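Stag3 and Smc1b kept their sign in all alternatives and their call in all but the fit without control replicate 1 and scaling on differentiating spermatogonia markers. Fits without 1 library kept the genes tested with all 4; running the low-count filter again on the remaining 3 was added after both versions had been seen, and it restored the call of Stag3 without control replicate 1 but not that of Smc1b. Without control replicate 1, control replicate 2, cKO replicate 1 and cKO replicate 2, it gave totals of 35, 55, 131 and 288 called genes, 1, 2, 2 and 2 cohesin calls, and 3, 5, 8 and 10 calls among the partner genes, and Smc3 was at 0.26 without control replicate 1; the cause of these differences was not tested. Rec8 and Rad21l passed in none, and their sign was negative except with scaling on differentiating spermatogonia markers. The total of 82 called genes became 154 with scaling on the median ratio of Sertoli cell markers (all lower) and 5051 with scaling on pan germ cell markers (40 lower, 5011 higher), and ranged from 10 to 346 with 1 library left out. The 2 cohesin calls became 4 with pan germ cell scaling and ranged from 0 to 2 with 1 library left out, and the 9 calls among the 32 partner genes became 13 with pan germ cell scaling (3 lower, 10 higher), 6 with the summed Sertoli scaling, and ranged from 0 to 10. Pan germ cell scaling turned the sign of Stag1 (0.55), Stag2 (0.60), Smc1a (0.67), Smc3 (0.75), Rad21 (0.63), Eif5 (0.16), Wdr43 (0.65), Rnf20 (0.63), Eepd1 (0.64), Itsn1 (0.67), Snapc1 (0.64) and Smc6 (0.41), since it raised the median of all genes. Summed Sertoli scaling turned Mau2 (-0.068). Scaling on differentiating spermatogonia markers, added after the values were seen, raised the median of all genes further and gave 9222 called genes (14 lower, 9208 higher), 5 cohesin calls (the general subunits, higher) and 17 partner calls (1 lower, 16 higher). It turned Rec8 (0.66), Rad21l (0.23), Stag1 (1.22), Stag2 (1.27), Smc1a (1.34), Smc3 (1.42), Rad21 (1.30), Eif5 (0.83), Ecsit (0.12), Gnpda1 (0.15), Setdb2 (0.15), Rrm2 (0.12), H1fx (0.21), Wdr43 (1.32), Rnf20 (1.31), Eepd1 (1.30), Itsn1 (1.34), Snapc1 (1.31), Esco2 (0.16), Bub1 (0.36), Espl1 (0.54), Smc4 (0.67), Smc6 (1.08), Sycp3 (0.21) and Syce2 (0.27). With 1 library left out, Stag2 ranged from -0.67 to 0.28, Smc1a from -0.44 to 0.22, Smc3 from -0.36 to 0.28, Eepd1 from -0.28 to 0.026 and Itsn1 from -0.25 to 0.0025, none of them called. Replicate numbers did not pair the libraries (correlation of deviations -0.05). With a replicate block the cohesin calls stayed at 2, and the total of called genes went from 82 to 100. The block changed no member's call, and the paralog differences are the same by construction (-1.35 for Stag3 to Stag1 plus Stag2). Depth limits Rad21l most, with 27 reads in its lowest library.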
